A study of Homo sapiens with 2 samples.

Results

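The clustered protocadherins are 53 protein-coding genes in 3 neighbouring clusters on human chromosome 5, named alpha, beta and gamma. Their promoter contacts were taken from promoter-capture Hi-C lists, which record chromatin contacts between a captured (bait) restriction fragment and a partner fragment. A gene entered when its symbol starts with PCDHA, PCDHB or PCDHG in a RefSeq table of GRCh38.p14 and when one of its ends lies on a bait fragment of either list. By this rule 45 of the 53 genes had a listed bait fragment, of 13721 such genes in the series, and they lay on 32 of 17883 bait fragments. The 45 genes were 12 of 15 alpha genes on 8 fragments, 14 of 16 beta genes on 12 fragments and 19 of 22 gamma genes on 12 fragments. PCDHA12, PCDHA13, PCDHAC1, PCDHB5, PCDHB16, PCDHGA2, PCDHGA4 and PCDHGA12 had none and were not analysed here.

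The cells were K562, an established human line from chronic myelogenous leukaemia that carries the BCR-ABL1 fusion kinase in every group. One group received 100 nM ponatinib, an inhibitor of that kinase, for 24 h, and the other received the vehicle DMSO for 24 h. Both libraries came from the same number of harvested cells. The comparison asks which promoter contacts differ after the kinase is inhibited. There was 1 library per treatment, so no difference below has a replicate check, no test of the treatment was possible, and intervals are exact (Clopper-Pearson) 95% intervals that cover counting error only.

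With ponatinib 91305 interactions of 15938 bait fragments were listed, and with DMSO 84049 interactions of 15835, so 52.1% of the listed numbers were in the ponatinib list. An interaction is an unordered pair of fragments, and its score is the authors' own value within a list, with none below 5. Without read counts in the files, neither library's depth is known. The label K562 was checked by contacts between chromosome 22 and the part of chromosome 9 within 1 Mb of ABL1, which numbered 1765 in the ponatinib list and 1636 in the DMSO list.

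Clustered protocadherins are cell-surface adhesion proteins, best known from neurons, where each cell uses its own small choice of them as an identity tag for recognising its own branches. Each alpha and gamma gene has its own promoter and variable exon, which is spliced to constant exons that all genes of that cluster share, while each beta gene is complete in its own exon. The promoters that a neuron uses are known to be held by the CTCF protein and cohesin in loops with enhancers, which lie between the alpha and beta clusters and downstream of the gamma cluster. K562 is a blood cell line, and the deposited lists say nothing of whether these genes are transcribed in it.

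In hg38 coordinates the alpha genes span chr5:140786140-141012347 (226 kb), the beta genes chr5:141051374-141249365 (198 kb) and the gamma genes chr5:141330514-141512975 (182 kb). The whole locus from PCDHA1 to the shared gamma end covers 727 kb. Of the 32 fragments, 23 held ends of 1 protocadherin gene and 9 held ends of several, up to 4, and genes on the same fragment share its number. 31 fragments held a gene's start and the other held the 3′ end of PCDHB6, next to the fragment with its start. None held an end of a gene outside the family, and none lay at the shared 3′ ends of the alpha or gamma genes.

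Stretches of the promoters are shown because a short conserved element that holds CGCT is a known feature of this family's promoters. The letters CGCT recur across the fragments that the lists join, though not every occurrence need be that element. Promoter sequences came from RefSeq (GRCh38.p14), from 250 bases before to 50 after each gene's start, and 41 of the 45 genes had an entry (11 alpha, 12 beta, 18 gamma). The genes with none were PCDHA3, PCDHB6, PCDHB11 and PCDHGC5. Each line below gives 40 bases on the gene's strand, 5′ to 3′, with CGCT in capitals, for 12 genes that are described below.
PCDHA2, chr5:140794779-140794818, plus strand: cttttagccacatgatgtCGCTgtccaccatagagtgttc
PCDHA7, chr5:140834170-140834209, plus strand: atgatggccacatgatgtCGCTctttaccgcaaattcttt
PCDHA10, chr5:140855839-140855878, plus strand: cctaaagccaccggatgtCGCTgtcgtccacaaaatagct
PCDHAC2, chr5:140966417-140966456, plus strand: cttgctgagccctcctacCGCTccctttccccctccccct
PCDHB1, chr5:141051272-141051311, plus strand: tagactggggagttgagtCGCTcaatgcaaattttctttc
PCDHB7, chr5:141172564-141172603, plus strand: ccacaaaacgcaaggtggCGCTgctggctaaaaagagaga
PCDHB14, chr5:141223261-141223300, plus strand: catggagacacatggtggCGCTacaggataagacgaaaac
PCDHB15, chr5:141245312-141245351, plus strand: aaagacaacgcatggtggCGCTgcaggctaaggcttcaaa
PCDHGA3, chr5:141343765-141343804, plus strand: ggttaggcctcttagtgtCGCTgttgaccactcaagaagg
PCDHGB1, chr5:141350023-141350062, plus strand: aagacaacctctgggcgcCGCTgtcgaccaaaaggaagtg
PCDHGA7, chr5:141382647-141382686, plus strand: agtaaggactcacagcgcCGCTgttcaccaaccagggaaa
PCDHGC3, chr5:141475878-141475917, plus strand: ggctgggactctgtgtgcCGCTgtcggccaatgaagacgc

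The letters CGCT on the gene's strand, starting 30 to 90 bases upstream of the start, were present in 37 of 41 protocadherin promoters (90.2%), against 19.1% of all 35116 RefSeq promoters. The 4 without it in that window were PCDHA9, PCDHB8, PCDHGA1 and PCDHGB2. The bases around CGCT differed by cluster. In PCDHAC2 and PCDHB1 they were unlike those of the other alpha and beta promoters shown, so CGCT there may not be the conserved element. ATGTCGCT, read on both strands over the whole promoter, was found in 8 alpha promoters and in no beta or gamma promoter, against 0.234% of all promoters. GTGGCGCT was found in 11 beta promoters and in no alpha or gamma promoter, against 1.15% of all promoters. GCCGCTGT was found in 11 gamma promoters and in no alpha or beta promoter, against 1.63% of all promoters. GTCGCTGT was found in 5 alpha and 4 gamma promoters, against 0.652% of all promoters. These longer runs contain CGCT and so overlap it, and all motifs and the window were chosen after the sequences were seen. Over both strands and the whole promoter, CGCT alone was found in 97.6% of the protocadherin promoters and 70.0% of all promoters. A match is a description of letters and not a bound site.

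The protocadherin fragments made many contacts, with ponatinib and with DMSO. A protocadherin fragment had a median of 10 listed interactions in the ponatinib list (2 to 33) and 9.5 in the DMSO list (2 to 29). The median over all 17883 bait fragments was 3 in the ponatinib list and 3 in the DMSO list, and over the 914 other bait fragments of chromosome 5 it was 4 with ponatinib and 4 with DMSO. The 35 bait fragments of HOX genes, another family of clustered developmental genes, had medians of 9 with ponatinib and 8 with DMSO. Fragment length varied from 1.48 to 22.3 kb. Across the 32 fragments it had a Spearman rho of 0.052 with the number of interactions in the ponatinib list and 0.10 in the DMSO list, a description over fragments of the same 2 libraries that often share an interaction.

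Among the 8 alpha fragments, 2 held most of the contacts. PCDHA2 had 23 interactions in the ponatinib list and 24 in the DMSO list, 14 of them shared. The fragment with the starts of PCDHA9, PCDHA10 and PCDHA11 had 23 with ponatinib and 25 with DMSO, 12 of them shared. The remaining 6 alpha fragments had 4 to 11 interactions in the ponatinib list and 2 to 9 in the DMSO list. The PCDHA7 and PCDHA8 fragment had 11 with ponatinib and 4 with DMSO. PCDHAC2, a C-type gene that lies nearest the constant exons, had 4 with ponatinib and 2 with DMSO. The other 4 differed by at most 2 interactions. PCDHA1 had 5 with ponatinib and 3 with DMSO, PCDHA3 had 7 with ponatinib and 8 with DMSO, PCDHA4 had 6 with ponatinib and 8 with DMSO, and the PCDHA5 and PCDHA6 fragment had 8 with ponatinib and 9 with DMSO.

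Among the 12 beta fragments, PCDHB14 and PCDHB7 held the most. PCDHB14 had 28 interactions in the ponatinib list and 27 in the DMSO list. PCDHB7 had 25 with ponatinib and 29 with DMSO. The other 10 beta fragments had 5 to 16 interactions in the ponatinib list and 2 to 13 in the DMSO list. PCDHB4 had 9 with ponatinib and 2 with DMSO, and PCDHB1 at the alpha side of the cluster had 10 with ponatinib and 6 with DMSO. The PCDHB2 and PCDHB3 fragment had 7 with ponatinib and 11 with DMSO, of which 1 was shared. The PCDHB9 and PCDHB10 fragment had 16 with ponatinib and 11 with DMSO, and PCDHB15 had 12 with ponatinib and 9 with DMSO. The remaining 5 beta fragments all had fewer with ponatinib. The fragment with the PCDHB6 start had 6 with ponatinib and 8 with DMSO, and that with its end 7 with ponatinib and 8 with DMSO. PCDHB8 had 10 with ponatinib and 13 with DMSO, PCDHB11 had 7 with ponatinib and 10 with DMSO, and the PCDHB12 and PCDHB13 fragment had 5 with ponatinib and 8 with DMSO.

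Among the 12 gamma fragments, PCDHGB1, PCDHGA3 and PCDHGA7 held the most. PCDHGB1 had 33 interactions in the ponatinib list and 28 in the DMSO list, with 21 shared. PCDHGA3 had 26 with ponatinib and 16 with DMSO, so 61.9% (45.6 to 76.4) of its numbers were in the ponatinib list. PCDHGA7 had 21 with ponatinib and 25 with DMSO. PCDHGA1 had 13 with ponatinib and 9 with DMSO, and the fragment with PCDHGB2, PCDHGA5, PCDHGB3 and PCDHGA6 had 10 with ponatinib and 6 with DMSO. The other A-type and B-type fragments differed by at most 1 interaction. PCDHGB4 had 12 with ponatinib and 13 with DMSO, and PCDHGB6 had 13 with ponatinib and 12 with DMSO. The fragment with PCDHGA8, PCDHGB5 and PCDHGA9 had 13 with ponatinib and 14 with DMSO, and that with PCDHGA10, PCDHGB7 and PCDHGA11 had 9 with ponatinib and 9 with DMSO. Of the C-type genes next to the constant exons, PCDHGC3 had 6 with ponatinib and 11 with DMSO, PCDHGC4 had 10 with ponatinib and 10 with DMSO, and PCDHGC5 had 2 with ponatinib and 2 with DMSO, the fewest of the gamma fragments in both libraries.

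**Figure D1:**
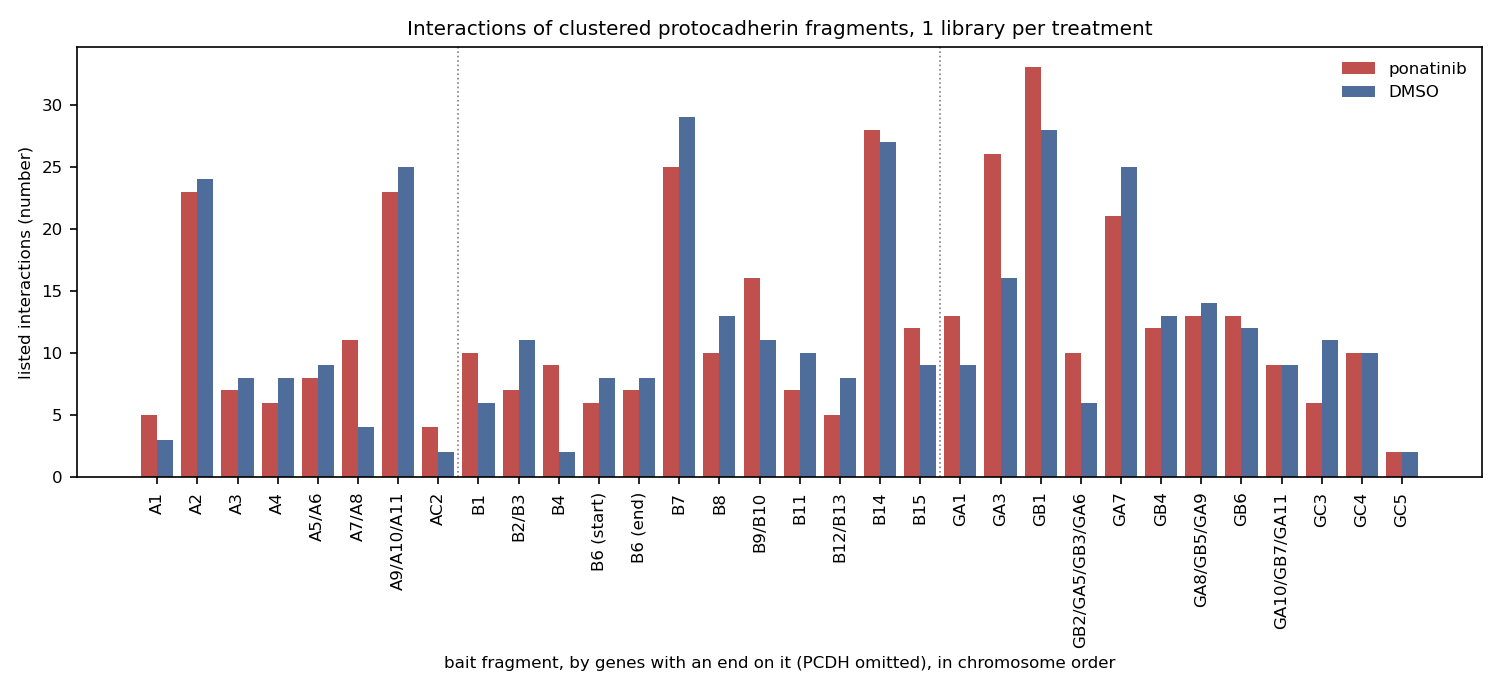
Number of listed interactions (vertical axis) of each of the 32 protocadherin bait fragments in chromosome order (horizontal axis), with the ponatinib library in red left of the DMSO library in blue and dotted lines between clusters. PCDHA2, the PCDHA9 to PCDHA11 fragment, PCDHB7, PCDHB14, PCDHGA3, PCDHGB1 and PCDHGA7 stand above the rest, from 21 to 33 interactions with ponatinib and from 16 to 29 with DMSO.

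In all, the protocadherin fragments had 275 interactions in the ponatinib list and 256 in the DMSO list. The ponatinib share was 51.8% (47.4 to 56.1), an interval that includes both the 52.1% of the whole lists and equal numbers. Interactions of alpha fragments numbered 80 with ponatinib and 76 with DMSO, those of beta fragments 134 with ponatinib and 129 with DMSO, and those of gamma fragments 152 with ponatinib and 136 with DMSO, a contact between clusters being counted in each. More interactions with ponatinib were listed for 13 fragments, fewer for 16 and equal numbers for 3. A call was made for a fragment with 5 or more interactions over both lists whose ratio (ponatinib + 1)/(DMSO + 1) was at least 2-fold away from equal. Of the 31 fragments with enough interactions, 2 were called with more in ponatinib, the PCDHA7 and PCDHA8 fragment and PCDHB4, beside 10.5% of all bait fragments. None was called with fewer in ponatinib, beside 7.17% of all bait fragments. These counts do not set the family apart from the background. The numbers with ponatinib and with DMSO had a Spearman rho of 0.78 over the 32 fragments, a description with no test.

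The lists held 401 distinct protocadherin interactions, and 130 were in both. The shared interactions were 47.3% (41.2 to 53.4) of the protocadherin interactions in the ponatinib list and 50.8% (44.5 to 57.1) of those in the DMSO list. The shared part of the whole lists was 40.7% of the ponatinib list and 44.3% of the DMSO list. A looser match allowed a gap of up to 5 kb between fragments at both ends, so that neighbouring fragments of any length counted. With it, 82.9% of the protocadherin interactions with ponatinib and 83.6% of those with DMSO had a match in the other list. Many contacts found in 1 list thus lay beside a contact in the other. No share of the whole lists was computed for this match, so it does not set the family apart. Of the 130 shared interactions, 72 (55.4%, 46.4 to 64.1) had the higher score in the ponatinib list, against 53.6% of the shared interactions of the whole lists. The median score of protocadherin interactions was 6.49 in the ponatinib list and 6.51 in the DMSO list, and the highest was 26.18 in the ponatinib list and 21.3 in the DMSO list.

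Contacts between protocadherin fragments made up 122 of the 275 interactions with ponatinib and 124 of the 256 with DMSO. Bait fragments of any gene lay at both ends of 54.9% (48.8 to 60.9) of protocadherin interactions in the ponatinib list and 59.8% (53.5 to 65.8) in the DMSO list. Over the whole lists the share was 18.7% with ponatinib and 19.1% with DMSO, and for HOX fragments 16.8% with ponatinib and 17.7% with DMSO. A locus dense in bait fragments offers more such pairs, so the listed pairs were also set against all the pairs that the bait fragments could form. Of the 496 possible pairs of the 32 protocadherin fragments, 122 (24.6%, 20.9 to 28.6) were listed with ponatinib and 124 (25%, 21.2 to 29.1) with DMSO. Of all possible pairs of bait fragments within 710 kb, 11.1% were listed with ponatinib and 10.5% with DMSO, and for the other bait fragments of chromosome 5 the shares were 11.9% with ponatinib and 12.1% with DMSO.

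The listed share depended on distance. For protocadherin pairs closer than 50 kb it was 16.2% (8.67 to 26.6) with ponatinib and 23.0% (14.0 to 34.2) with DMSO, intervals that include the shares of all bait pairs at that distance, 18.3% with ponatinib and 18.5% with DMSO. At 100 to 200 kb it was 36.7% (26.8 to 47.5) with ponatinib and 33.3% (23.7 to 44.1) with DMSO, where all bait pairs had 17.9% with ponatinib and 17.2% with DMSO. At 200 to 300 kb it was 33.7% (23.9 to 44.7) with ponatinib and 30.2% (20.8 to 41.1) with DMSO, where all bait pairs had 13.9% with ponatinib and 13.0% with DMSO. From 100 to 400 kb and at 500 to 600 kb the intervals of the protocadherin pairs lay above the shares of all bait pairs in both libraries. At 50 to 100 kb the share was 18.5% (9.25 to 31.4) with ponatinib, an interval that includes the 18.2% of all bait pairs, and 33.3% (21.1 to 47.5) with DMSO, an interval above the 17.9% of all bait pairs. Pairs of the other chromosome 5 bait fragments at that distance had 19.2% with ponatinib and 21.7% with DMSO, each inside the protocadherin interval. Pairs that share a fragment are not independent, so these intervals are too narrow.

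**Figure D2:**
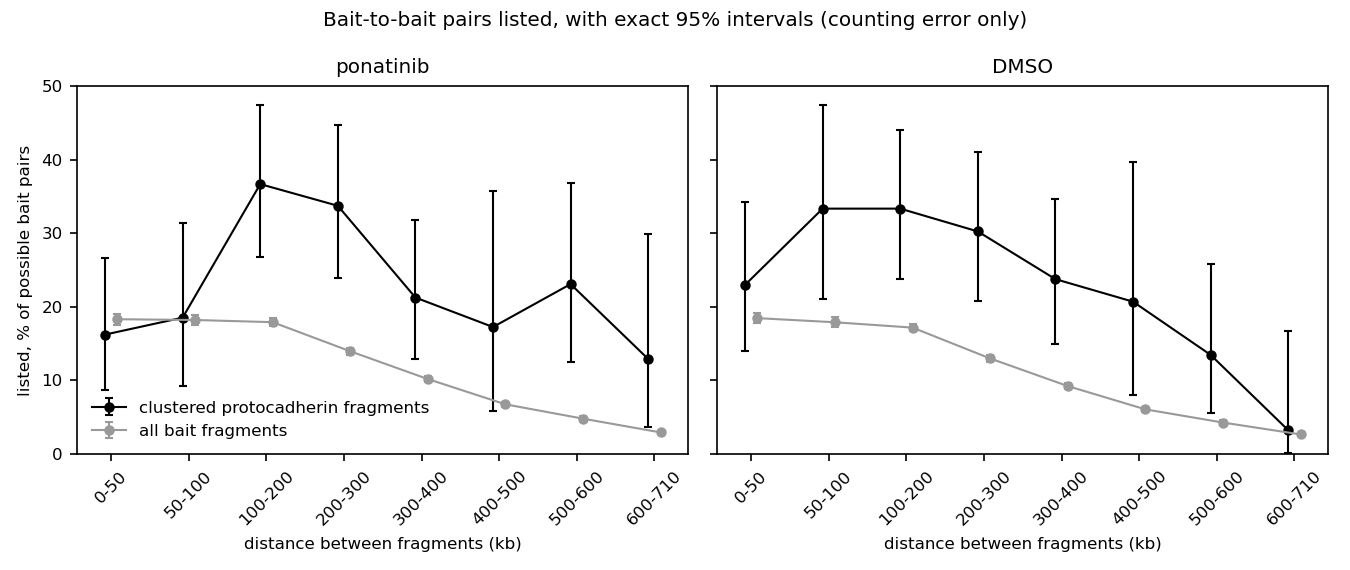
Percent of possible bait-to-bait pairs that were listed (vertical axis) by distance between fragments in kb (horizontal axis), ponatinib left and DMSO right, with exact 95% intervals for counting error. Protocadherin pairs (black) sit near all bait pairs (grey) below 50 kb and above them from 100 to 400 kb, with 36.7% against 17.9% at 100 to 200 kb in the ponatinib library and 33.3% against 17.2% in the DMSO library.

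Between clusters, beta and gamma promoters were joined most often. Of 144 possible beta to gamma pairs, 46 (31.9%, 24.4 to 40.2) were listed with ponatinib and 50 (34.7%, 27.0 to 43.1) with DMSO, and 33 were the same pairs. Of 96 possible alpha to beta pairs, 27 (28.1%, 19.4 to 38.2) were listed with ponatinib and 27 (28.1%, 19.4 to 38.2) with DMSO, 14 of them the same. These intervals include the beta to gamma shares, and the kinds of pair were not matched by distance. Within the alpha cluster 7 of 28 pairs were listed with ponatinib and 7 with DMSO, 6 of them the same. PCDHA2, near the far end of the cluster, was in 5 of the 7 with ponatinib and in 5 of the 7 with DMSO. Within the beta cluster 8 of 66 pairs (12.1%) were listed with ponatinib and 13 (19.7%) with DMSO, and within the gamma cluster 16 of 66 (24.2%) with ponatinib and 19 (28.8%) with DMSO.

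Pairs within a cluster numbered 31 with ponatinib and 39 with DMSO, a ponatinib share of 44.3% (32.4 to 56.7). Pairs of different clusters numbered 91 with ponatinib and 85 with DMSO, a ponatinib share of 51.7% (44.1 to 59.3). Both intervals include the 52.1% of the whole lists. The alpha to gamma pairs, the most distant kind, numbered 18 of 96 possible (18.8%) with ponatinib and 8 (8.33%) with DMSO, 4 of them the same, a ponatinib share of 69.2% (48.2 to 85.7) whose interval also includes 52.1%. No alpha to gamma pair had a score of at least 10 with ponatinib, against 2 with DMSO, namely PCDHA3 to PCDHGB4 (5.2 with ponatinib and 15.26 with DMSO) and PCDHA2 to PCDHGA3 (not listed with ponatinib and 12.91 with DMSO).

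**Figure D3:**
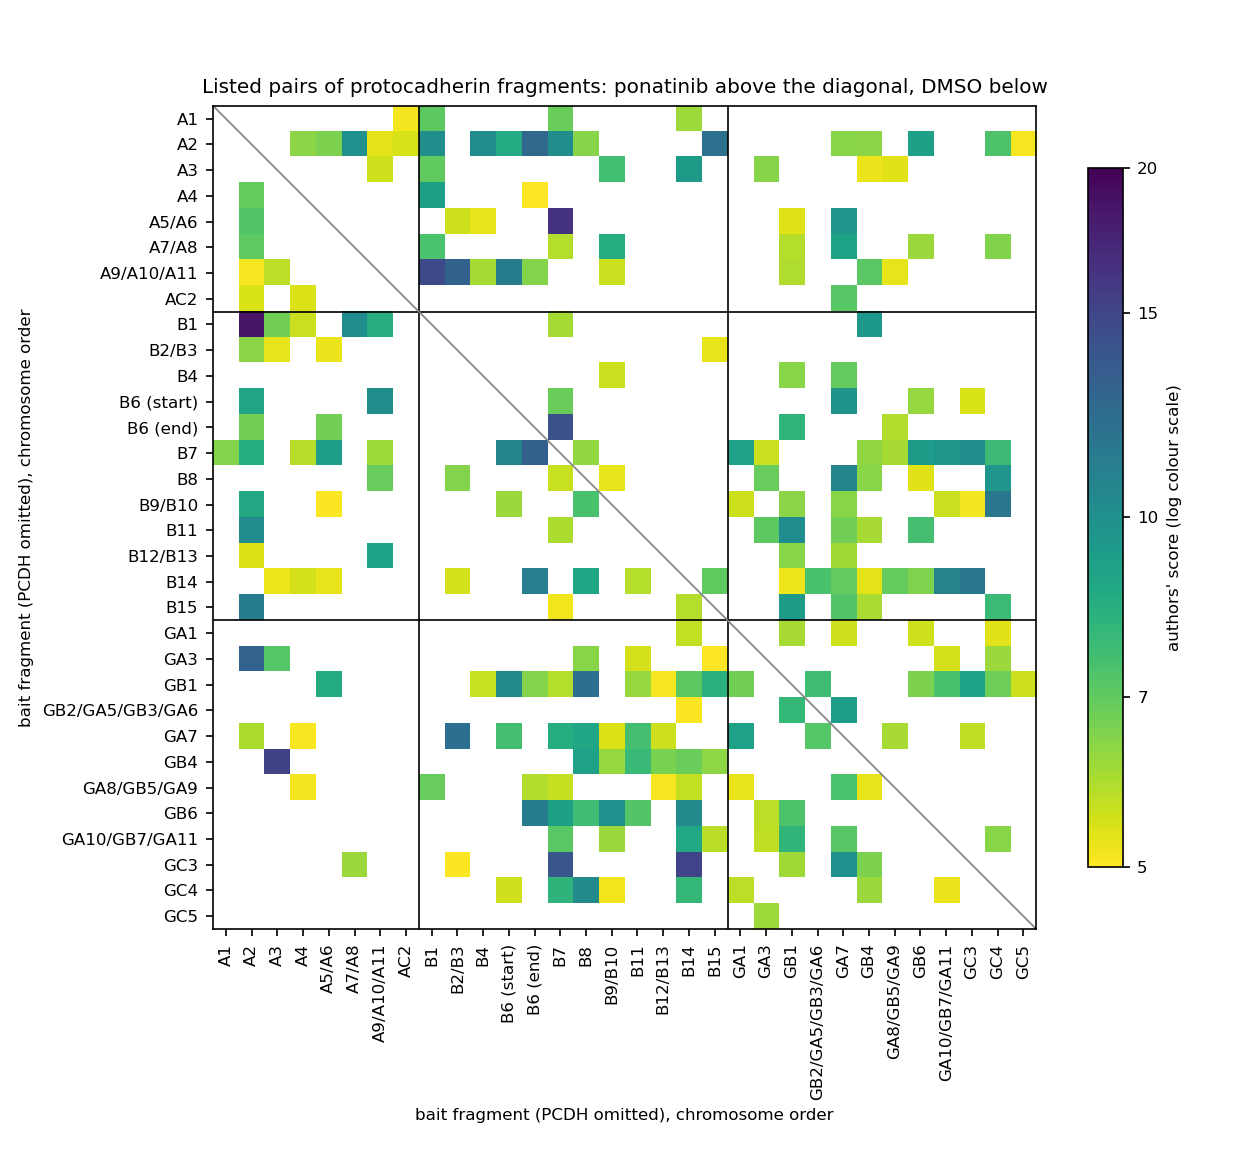
Listed pairs of the 32 protocadherin fragments, in chromosome order on both axes, with ponatinib above the diagonal and DMSO below it and the authors' score as colour on a log scale from 5 to 20. Black lines divide the alpha, beta and gamma clusters, white is not listed, and the beta to gamma blocks are the fullest, with 46 of 144 pairs with ponatinib and 50 with DMSO.

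A few promoters took part in most of these pairs. PCDHA2 was paired with 17 other protocadherin fragments with ponatinib and 16 with DMSO, 11 of them the same. PCDHB7 was paired with 16 with ponatinib and 17 with DMSO, PCDHGB1 with 17 with ponatinib and 15 with DMSO, and PCDHGA7 with 16 with ponatinib and 14 with DMSO. PCDHB14 was paired with 11 with ponatinib and 17 with DMSO, 9 of them the same. By contrast PCDHGC5 was paired with 2 fragments with ponatinib and 1 with DMSO.

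The 3 highest alpha scores of each list were all with beta or gamma promoters. With ponatinib they were PCDHA5 and PCDHA6 to PCDHB7 (16.31, and 9.21 with DMSO), the PCDHA9 to PCDHA11 fragment to PCDHB1 (14.66, and 8.44 with DMSO) and the same fragment to PCDHB2 and PCDHB3 (13.02, and not listed with DMSO). With DMSO the highest was PCDHA2 to PCDHB1, with a score of 10.02 in the ponatinib list and 18.57 in the DMSO list. PCDHB1 lies at the edge of the beta cluster nearest the alpha genes and apart from the other beta genes, and 6 alpha fragments contacted it with ponatinib and 5 with DMSO. Among beta to gamma pairs, PCDHB14 to PCDHGC3 had 11.51 with ponatinib and 15.12 with DMSO.

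Alpha and beta contacts pointed mainly toward the gamma end of the locus. Partners lay at the higher coordinate for 92.0% of the alpha contacts with ponatinib and 91.5% with DMSO, for 73.6% of the beta contacts with ponatinib and 70% with DMSO, and for 48.2% of the gamma contacts with ponatinib and 40% with DMSO. A pair within a cluster counts from both ends. The alpha cluster lies at the low-coordinate end of the locus, so its contacts with the other clusters are always at higher coordinates. No expected share was computed, so these shares partly restate the clusters' positions. Alpha fragments had no listed partner upstream of the cluster, and beta fragments had 2 there with ponatinib and 2 with DMSO. Contacts with other chromosomes were few, 4 (1.45%) with ponatinib and 3 (1.17%) with DMSO, where the other bait fragments of chromosome 5 had 2.98% with ponatinib and 4.30% with DMSO. HOX fragments had lower shares than the protocadherin fragments, 0.22% with ponatinib and 0.92% with DMSO. The median distance of protocadherin contacts was 216 kb with ponatinib and 206 kb with DMSO.

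The regions behind the promoters were contacted by different clusters. The region downstream of the alpha promoters, chr5:140968168-141051373 (83 kb), runs from behind the PCDHAC2 bait fragment across the shared alpha exons to the PCDHB1 start. Alpha fragments had 15 interactions there with ponatinib and 20 with DMSO, 8 of them shared, from 6 alpha fragments with ponatinib and 7 with DMSO. Protocadherin bait fragments, such as that of PCDHB1 at the region's far edge, were not counted as partners there. No beta or gamma fragment had a listed interaction with the region's other fragments in either library. The partners were 13 fragments between chr5:140984767-141048170, and the most contacted was chr5:141037916-141041750, past the last alpha exon, which 5 alpha fragments contacted with ponatinib and 4 with DMSO. The fragment next to it, chr5:141041751-141048170, was contacted by 1 with ponatinib and 5 with DMSO. The PCDHA9 to PCDHA11 fragment alone had 6 of these interactions with ponatinib and 11 with DMSO, and all 6 were among the 11.

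The region downstream of the gamma promoters was contacted by beta and gamma promoters. It was taken from behind the PCDHGC5 bait fragment to 200 kb past the gamma genes, chr5:141493377-141712975 (220 kb), and holds the shared gamma exons, the gene DIAPH1, which encodes a formin that nucleates actin filaments, and its neighbours HDAC3, RELL2 and FCHSD1. The protocadherin fragments had 103 interactions there with ponatinib and 65 with DMSO, 42 of them shared, so the ponatinib share was 61.3% (53.5 to 68.7), against 52.1% for the whole lists. Beta fragments had 39 with ponatinib and 24 with DMSO, from 10 of 12 fragments with ponatinib and 10 with DMSO. Gamma fragments had 63 with ponatinib and 41 with DMSO, from 9 of 12 fragments with ponatinib and 9 with DMSO. PCDHGC3, PCDHGC4 and PCDHGC5, the gamma promoters closest to the region, had none there in either library. The only alpha fragment with a listed contact was PCDHA2, with 1 with ponatinib and 0 with DMSO. The planned count took both downstream regions together, and the gamma region was taken alone after the data were seen. Together they had 118 interactions with ponatinib and 85 with DMSO. That ponatinib share was 58.1% (51.0 to 65.0), an interval that includes 52.1%. For the alpha downstream region alone it was 42.9% (26.3 to 60.6).

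The larger number with ponatinib in the gamma downstream region was found in contacts of several promoters. PCDHGA3 had 17 interactions with the gamma downstream region with ponatinib and 7 with DMSO, and all 7 were among the 17. PCDHB14 had 14 with ponatinib and 8 with DMSO, PCDHGB1 15 with ponatinib and 12 with DMSO, and PCDHGA1 7 with ponatinib and 4 with DMSO. PCDHGA7 went the other way, with 5 with ponatinib and 7 with DMSO, and PCDHGB4 and PCDHGB6 had 3 each in both libraries. Without PCDHGA3 the ponatinib share was 59.7% (51.2 to 67.8), an interval that includes 52.1%.

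Values by distance and by list length are given beside this count, and no cause was tested. Whole-list interactions at 100 to 200 kb had a ponatinib share of 51.8% and those at 200 to 400 kb 51.9%, whereas contacts with the gamma downstream region had 58.8% (47.2 to 69.6) at 100 to 200 kb, from 47 with ponatinib and 33 with DMSO, and 64% (52.1 to 74.8) at 200 to 400 kb, from 48 with ponatinib and 27 with DMSO. At 400 to 710 kb there were 6 with ponatinib and 5 with DMSO, 54.5% (23.4 to 83.3), where the whole lists had 52.7%. Under 100 kb there was 1 with ponatinib and 0 with DMSO. When the ponatinib list was shortened to the DMSO list's length, keeping its highest scores, the share was 58.9% (50.8 to 66.6). Both whole lists then had the same number of interactions, but only low-scoring ponatinib interactions were removed. The shortening did not equalise depth, which is unknown. Among interactions with a score of at least 7 it was 57.5% (46.4 to 68.0), and at a score of at least 10 it was 51.9%, from 14 with ponatinib and 13 with DMSO. The ponatinib share was thus smaller among the higher scores. The whole lists had 38509 interactions with ponatinib and 33877 with DMSO at a score of at least 7. At a score of at least 10 they had 14935 with ponatinib and 12533 with DMSO. At that score the gamma downstream share was therefore not above that of the whole lists. Interactions of 1 promoter with neighbouring fragments are not independent, which makes these intervals too narrow.

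**Figure D4:**
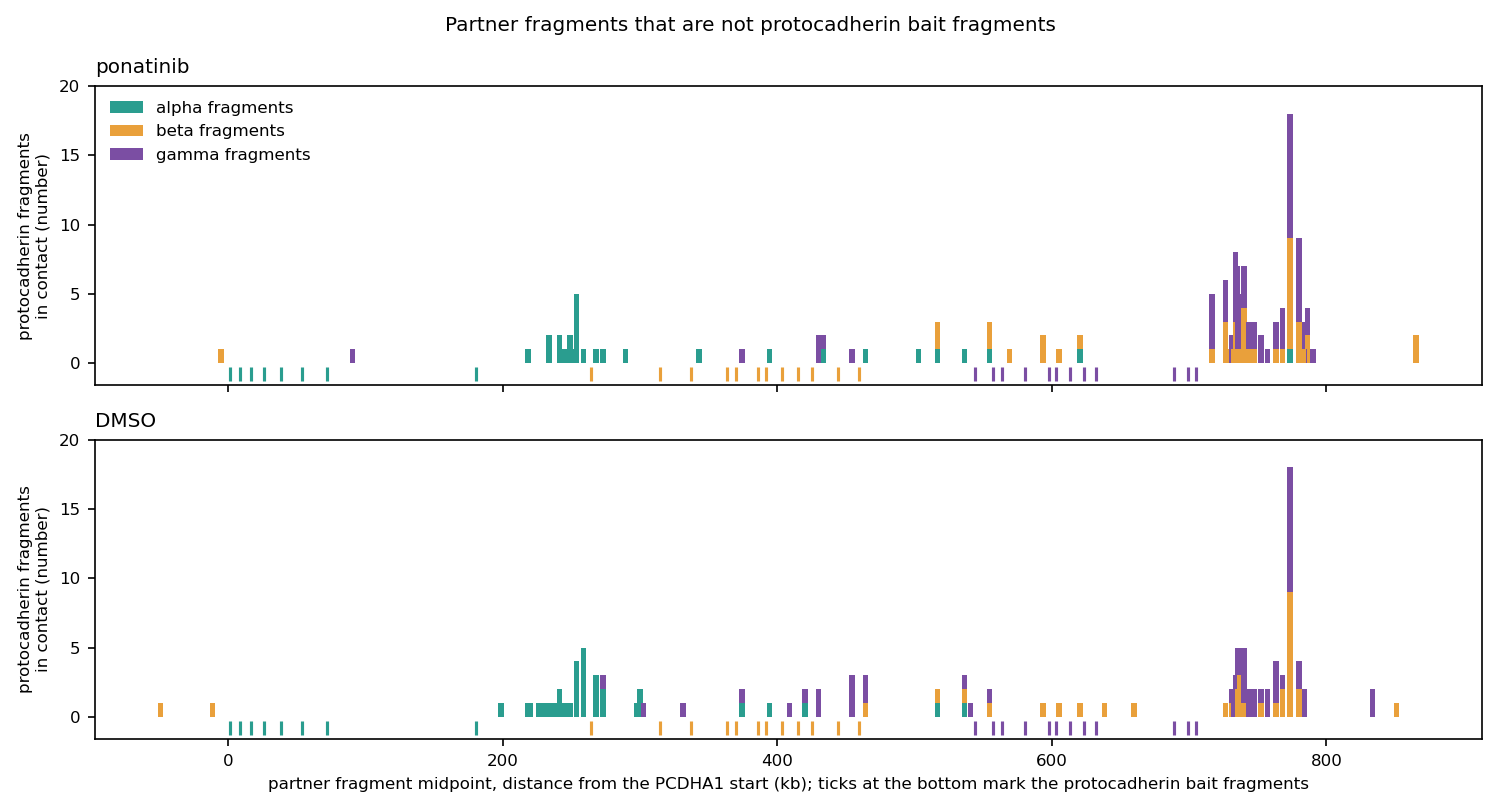
Partner fragments that hold no protocadherin bait, by distance of their midpoint from the PCDHA1 start in kb (horizontal axis) and by the number of alpha, beta and gamma bait fragments that contacted them (stacked bars), ponatinib above and DMSO below. Bars of fragments closer than a bar's width overlap, ticks mark the bait fragments, and the tallest bar is the fragment inside DIAPH1, which 18 protocadherin fragments contacted with ponatinib and 18 with DMSO.

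One fragment inside DIAPH1 was the partner of most beta and gamma promoters. It is itself a bait fragment, chr5:141556397-141562999 (6.60 kb), and holds no end of a protein-coding gene in the gene table. It was joined to 18 of the 32 protocadherin fragments with ponatinib and to 18 with DMSO, 16 of them the same. These were 1 alpha, 8 beta and 9 gamma fragments with ponatinib and 0 alpha, 9 beta and 9 gamma fragments with DMSO. In all, the DIAPH1 fragment had 43 listed interactions with ponatinib and 40 with DMSO. More of them were thus with other fragments than with the 32 protocadherin bait fragments, and where those other partners lie was not examined. While this fragment had 18 protocadherin contacts in each library, the other fragments overlapping DIAPH1 had 72 interactions with ponatinib and 45 with DMSO, a ponatinib share of 61.5% (52.1 to 70.4).

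Its scores were among the highest of the family, with a median of 14.0 in the ponatinib list and 11.3 in the DMSO list. PCDHB15 had 26.18 with ponatinib and 10.44 with DMSO, PCDHB14 23 with ponatinib and 21.12 with DMSO, and PCDHGA1 22.56 with ponatinib and 17.59 with DMSO. PCDHGB1 had 20.21 with ponatinib and 21.3 with DMSO, and PCDHGA7 17.76 with ponatinib and 18.12 with DMSO. PCDHGB6 had the lower score with ponatinib, 6.5, against 14.2 with DMSO. A score is a value within its list and the libraries' depths are unknown, so these are the authors' values side by side and not a change in contact.

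**Figure D5:**
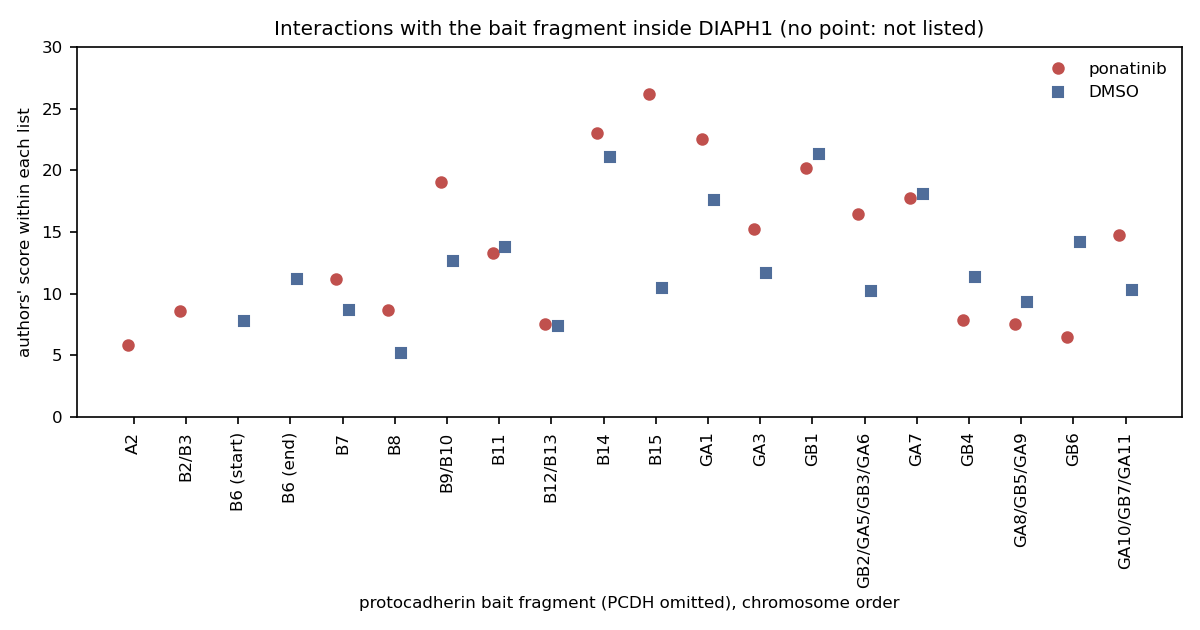
The authors' score (vertical axis, from 0) of each protocadherin fragment's interaction with the bait fragment inside DIAPH1, in chromosome order, ponatinib as red circles left of DMSO as blue squares and no point where the pair was not listed. Scores reach 26.18 for PCDHB15 with ponatinib and 21.3 for PCDHGB1 with DMSO.

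Several other fragments of the gamma downstream region, picked after their values were seen, were contacted by more promoters with ponatinib. The fragment chr5:141519609-141520136 was contacted by 8 protocadherin fragments with ponatinib and 3 with DMSO, and chr5:141520137-141520541 beside it by 6 with ponatinib and 1 with DMSO. The fragment that holds the end of the last shared gamma exon, chr5:141511997-141513288, was contacted by 6 with ponatinib and 1 with DMSO. On the far side of the most contacted fragment, chr5:141563000-141569151 was contacted by 9 with ponatinib and 4 with DMSO, and those 4 were among the 9. Inside the gamma genes, chr5:141493377-141511996 was contacted by 5 with ponatinib and 0 with DMSO, and inside DIAPH1 chr5:141571435-141573057 by 4 with ponatinib and 0 with DMSO. Other fragments had like numbers, such as chr5:141522218-141523408 with 5 with ponatinib and 5 with DMSO, and chr5:141546798-141552079 had 3 with ponatinib and 4 with DMSO.

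Contacts of the family with bait fragments at ends of other genes nearby were few. The bait fragment of SLC25A2, a mitochondrial amino acid carrier whose gene lies between the beta and gamma clusters, was contacted by 3 protocadherin fragments with ponatinib and 2 with DMSO. That of TAF7, a subunit of the general transcription factor TFIID, was contacted by 1 with ponatinib and 3 with DMSO. The bait fragment with ends of DIAPH1 and HDAC3, a histone deacetylase, was contacted by 0 with ponatinib and 2 with DMSO. It lies past the gamma end of the locus, as does a bait fragment with an end of FCHSD1 alone, which was contacted by 2 with ponatinib and 0 with DMSO. Another bait fragment there, with ends of HDAC3, RELL2 and FCHSD1, was contacted by 0 with ponatinib and 1 with DMSO.

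Related genes elsewhere were counted with the same rule. Of 12 non-clustered protocadherin genes, 6 had a listed bait fragment, and 3 had more interactions with ponatinib, 1 fewer and 2 equal numbers, with a median log2 ratio of 0.13. PCDH1 and PCDH12, also on chromosome 5, had 9 with ponatinib and 9 with DMSO each, and none of the 6 genes had a listed contact with a clustered protocadherin fragment. Of 16 genes whose products are known to act on chromatin loops, DNA methylation or silencing, the clustered protocadherins among their targets, 14 had a listed bait fragment. Of these 8 had more interactions with ponatinib, 4 fewer and 2 equal numbers, with a median log2 ratio of 0.32. The median over all 13721 genes was 0, with 6590 more and 5112 fewer, and over the 45 clustered protocadherin genes it was 0, with 18 more, 22 fewer and 5 equal. CTCF, which encodes the loop-anchoring zinc-finger protein, had 9 interactions with ponatinib and 0 listed with DMSO. STAG1, a cohesin subunit gene, had 39 with ponatinib and 24 with DMSO, RAD21, another cohesin subunit gene, 4 with ponatinib and 8 with DMSO, and SMCHD1, a chromosomal silencing gene, 6 with ponatinib and 11 with DMSO.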

How the data were processed

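Promoter-capture Hi-C was made from K562 cells treated with ponatinib or DMSO, with HindIII as the restriction enzyme and RNA probes for capture, per the labels' protocols. For each library the authors deposited a list whose lines give a bait fragment, a partner fragment and a score, with no score below 5. Coordinates are those of hg38, according to the submitters' processing notes. The aligner, the caller, the definition of the score and its threshold were not given in the sources used here. Scores were not normalised between libraries.

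Interactions were counted as unordered pairs. The ponatinib list had 91306 lines and 91305 interactions, because 1 pair stood in both orientations. They were called shared when the identical pair was in both lists. Distances are between fragment midpoints. Genes and promoters came from RefSeq tables of GRCh38.p14, and genes were placed by both ends, since the gene table gives no strand. The log2 ratio is log2((ponatinib + 1)/(DMSO + 1)). Possible pairs are all pairs of listed bait fragments on the same chromosome up to 710 kb apart. With 1 library per treatment no p-value was computed. Counting was tested on simulated lists with known answers, in Python 3.11.15 with numpy 2.4.6, scipy 1.17.1 and matplotlib 3.10.9.

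The rule for named items took all protocadherin fragments, the 3 highest scores of each cluster in each list, the most contacted partners with their genes, and up to 4 genes of each further list. Other partner fragments, and the bait fragments of SLC25A2, TAF7, HDAC3 and FCHSD1, were named after their values were seen. The members, gene lists and regions were chosen with earlier results of these data known. Alternatives were scores of at least 7 or 10, lists cut to equal length, gene ends within 1 kb and gene starts only. Further ones were ends matched across gaps of up to 5 kb, a pseudocount of 0.5, a minimum of 10 interactions and scaling by list length. Each downstream region alone, the alpha to gamma pairs alone, and the removal of PCDHGA3 were added after seeing the data.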

Additional observations from a re-analysis of the deposited data

How the results depend on the processing

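Of the alternative values, 56 lay inside the reported value's counting interval (for the number of called fragments, near it), 9 lay outside it and 1 crossed 50% where the reported interval lay above it. Values at the higher scores rest on few interactions, and their own intervals often include the reported value, such as 0 to 84.2% for the alpha to gamma pairs at a score of at least 10. The ponatinib share of contacts with the downstream regions of both kinds was 58.1% as reported, 54.5% at a score of at least 7, 55.3% in lists of equal length and 46.7% at a score of at least 10 (14 with ponatinib and 16 with DMSO), the value that crossed 50%. For the gamma downstream region alone it was 51.9% at a score of at least 10, and for the alpha downstream region alone 0% (0 with ponatinib and 3 with DMSO). For pairs within a cluster the ponatinib share was 31.8% at a score of at least 7 (7 with ponatinib and 15 with DMSO) and 25% at a score of at least 10 (1 with ponatinib and 3 with DMSO). For alpha to gamma pairs it was 0% at a score of at least 10 (0 with ponatinib and 2 with DMSO), and for all contacts of gamma fragments 45.5% (15 with ponatinib and 18 with DMSO). The median score in the ponatinib list became 8.93 at a score of at least 7 and 11.9 at a score of at least 10, since lower scores were removed by construction. The shared part of the ponatinib list was 82.9% with ends matched across gaps of up to 5 kb, a looser match by construction. The cause of the other moves was not tested. The number of called fragments stayed at 2, the same PCDHA7 and PCDHA8 fragment and PCDHB4, with a minimum of 10 interactions, a pseudocount of 0.5 or scaling by list length. At a score of at least 7 it was 3, the PCDHA7 and PCDHA8 fragment (5 with ponatinib and 2 with DMSO), PCDHB1 (7 with ponatinib and 3 with DMSO) and PCDHGB6 (3 with ponatinib and 8 with DMSO). No paired analysis was possible because each treatment had 1 library, and for the same reason no replicate could be left out. Depth is unknown, so a pair missing from a list was not necessarily absent from the cells.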
